A study of Homo sapiens with 8 samples.

Results

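CCL2, CCL5, CCL20 and CX3CL1 are the 4 genes described here, secreted or membrane-bound attractants of white blood cells, out of 22395 genes that the array's annotation names through a probe set with a single symbol. They were taken by symbol, with earlier results of these data known, and each had 1 probe set. Each passed the filter for testing, a value over 2.57 (log2), which is the median over all probe sets and arrays, on 1 array or more, and so all 4 were among the 16986 genes tested. RNA was measured on 8 whole-transcript arrays of U-CH1 and MUG-Chor1, established cell lines grown from human chordoma, a bone tumour with features of the embryonic notochord. The groups were U-CH1 given TNF-α (1 array), untreated U-CH1 (3 arrays), MUG-Chor1 given TNF-α (1 array) and untreated MUG-Chor1 (3 arrays). The TNF-α was recombinant human protein at 10 ng/mL, added 3 times a week for 1 week, and all cells were grown as monolayers on gelatin in medium with serum. Each tumour is represented by a single line, and the labels do not say whether the arrays of a group stem from different cultures, so the p-values cover the spread among these arrays alone, and that spread may be technical.

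Chemokines are small proteins that steer leukocytes along a gradient by binding receptors on their surface, and the CC and CX3C families are named after the spacing of their first cysteines. CCL2 draws monocytes through CCR2, CCL5 draws T cells and monocytes, and CCL20 draws CCR6-bearing dendritic cells and lymphocytes. CX3CL1, or fractalkine, is made as a membrane protein with its chemokine domain on a mucin stalk, binds CX3CR1, and is released when the proteases ADAM10 or ADAM17 cut it. TNF switches on such genes through NF-kB in many cell types.

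The RefSeq promoter table held an entry for 1 of the 4 genes, CCL20, whose 250 bases before the start are shown because CCL20 is the gene whose TNF call depended on 1 untreated array. They lie on the plus strand at chr2:227813592-227813841 (GRCh38.p14), and capitals mark matches on either strand to an NF-kB core, GGG then any 5 bases then CC, and to TATAAA.
CCL20: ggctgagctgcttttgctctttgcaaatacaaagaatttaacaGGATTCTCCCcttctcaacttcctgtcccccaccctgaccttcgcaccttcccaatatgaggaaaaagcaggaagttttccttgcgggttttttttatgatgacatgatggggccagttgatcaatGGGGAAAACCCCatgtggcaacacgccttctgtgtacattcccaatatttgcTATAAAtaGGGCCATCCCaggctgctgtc
The NF-kB core began 207 bases before the start, in overlapping matches from 81 bases, and again 21 bases before it, and TATAAA began 29 bases before it. Over 35116 promoter windows of the same length, 54.4% held the NF-kB core and 10.7% held TATAAA on either strand, so most promoters held the core. AP-1 (TGANTCA), present in 6.57% of windows, and the interferon response core (GAAA, any 2 bases, GAAA), present in 3.02%, had no match in these 250 bases. A match is a run of letters and not a measured binding site.

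The arrays had medians of 2.52 to 2.63. TBXT, which encodes the chordoma transcription factor brachyury, was at 8.80 in U-CH1 with TNF against 9.14 to 9.75 without it, and at 7.51 in MUG-Chor1 with TNF against 9.40 to 9.46 without it. Processing dates were not used here, and TNF and any array batch coinciding with it cannot be told apart. MUG-Chor1 ctrl 3 stood apart from the other untreated MUG-Chor1 arrays in 3 of the 4 chemokine genes, so results that rest on it are given with and without it. That array was singled out with its values known, so p-values of those 3 genes without it depend on that choice and are no independent support. Without it the TNF test across both lines called 438 genes (2.58%), 357 of them among the 422 called with it.

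CCL2 and CCL5 rose strongly with TNF in both lines, CCL20 passed the TNF test only when MUG-Chor1 ctrl 3 was left out, and CX3CL1 did not pass any TNF test run. CCL2 and CCL5 were the 2 genes with the highest differences across both lines of all 16986 tested. Of the 4 genes, 2 were called higher and 0 lower there, a description of genes chosen with results known, beside 2.48% of all genes called in either direction and 1.55% called higher and 0.93% lower. Within each line the same 2 of 4 were called higher, beside 0.913% of all genes higher and 0.359% lower in U-CH1, and 1.47% higher and 1.41% lower in MUG-Chor1. The single TNF array of a line has no replicate; in the tests within a line it was assumed to vary like the controls.

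CCL2 read 6.86 on the U-CH1 TNF array, against 2.52, 1.94 and 2.40 on U-CH1 ctrl 1, 2 and 3. It read 7.94 on the MUG-Chor1 TNF array, against 1.21, 0.99 and 3.11 on MUG-Chor1 ctrl 1, 2 and 3. Both TNF arrays lay far above all 6 controls, and 5 of the 6 control values were under that median of 2.57. CCL2 thus passed the filter through the TNF arrays and MUG-Chor1 ctrl 3, and without MUG-Chor1 ctrl 3 through the TNF arrays alone. Its entry into testing was therefore not independent of the rise. The rise was 23.9-fold in U-CH1 (log2 difference 4.58 ± 0.66, SE; limma adjusted p = 0.00909) and 71.9-fold in MUG-Chor1 (log2 6.17 ± 0.66, SE; adjusted p = 0.000745). Without MUG-Chor1 ctrl 3 it was 114-fold in MUG-Chor1 (log2 6.84, adjusted p = 8.63e-06; 3.91% of all genes called).

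CCL5 read 9.25 on the U-CH1 TNF array, against 4.59, 4.57 and 4.27 on the U-CH1 controls. It read 8.38 on the MUG-Chor1 TNF array, against 3.50, 3.51 and 5.43 on the MUG-Chor1 controls in order. The TNF arrays again lay above all controls, and unlike CCL2 every control value was above 2.57. The log2 difference was 4.77 ± 0.62 (SE) in U-CH1, a 27.3-fold rise (limma adjusted p = 0.00584), and 4.23 ± 0.62 (SE) in MUG-Chor1, an 18.7-fold rise (adjusted p = 0.00428). Fitted on the 4 MUG-Chor1 arrays alone the adjusted p was 0.051, and without MUG-Chor1 ctrl 3 the rise in that line was 29.2-fold (adjusted p = 1.78e-05).

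CCL20 read 3.72 on the U-CH1 TNF array, against 2.64, 2.44 and 2.75 on the U-CH1 controls. It read 4.62 on the MUG-Chor1 TNF array, against 3.02, 3.22 and 5.11 on MUG-Chor1 ctrl 1, 2 and 3. The U-CH1 TNF array was above its 3 controls, whereas the highest CCL20 value of all 8 arrays was that of the untreated MUG-Chor1 ctrl 3. The log2 difference was 0.97 across both lines (95% confidence interval 0.0033 to 1.95; limma adjusted p = 0.323), 1.11 in U-CH1 (adjusted p = 0.608) and 0.84 in MUG-Chor1 (adjusted p = 0.702). Without MUG-Chor1 ctrl 3 it was 1.30 across both lines, a 2.45-fold rise (interval 0.85 to 1.74; adjusted p = 0.00801), 1.50 in MUG-Chor1 (adjusted p = 0.0156) and 1.11 in U-CH1 (adjusted p = 0.0766, beside 1.94% of all genes called).

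CX3CL1 read 4.64 on the U-CH1 TNF array, against 4.56, 3.80 and 5.17 on the U-CH1 controls, so the TNF value lay within the spread of the controls. It read 5.90 on the MUG-Chor1 TNF array, against 5.38, 5.30 and 5.44 on the MUG-Chor1 controls, above all 3. Across both lines the log2 difference was 0.33 (95% confidence interval -0.33 to 0.99; limma adjusted p = 0.667). The upper bound of that interval is a 1.98-fold rise, so a change as large as that of CCL2 or CCL5 lies outside it. In U-CH1 the difference was 0.13 and in MUG-Chor1 0.52 (adjusted p = 0.965 and 0.736).

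**Figure D1:**
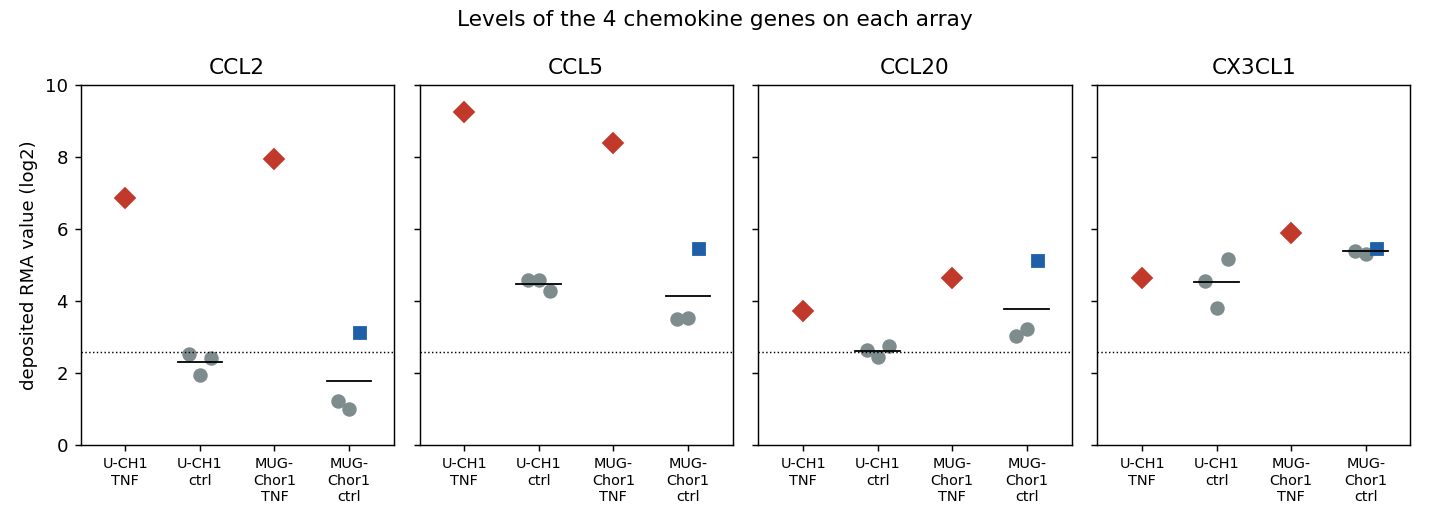
Deposited RMA values (log2, vertical axis) of CCL2, CCL5, CCL20 and CX3CL1 on each of the 8 arrays, by group. Diamonds are single TNF arrays, circles are untreated arrays, the square is MUG-Chor1 ctrl 3, short lines are the means of 3 untreated arrays and the dotted line is the filter value, 2.57; CCL2 and CCL5 diamonds lie above every untreated array, and the CCL20 square, at 5.11, lies above both CCL20 diamonds.

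**Figure D2:**
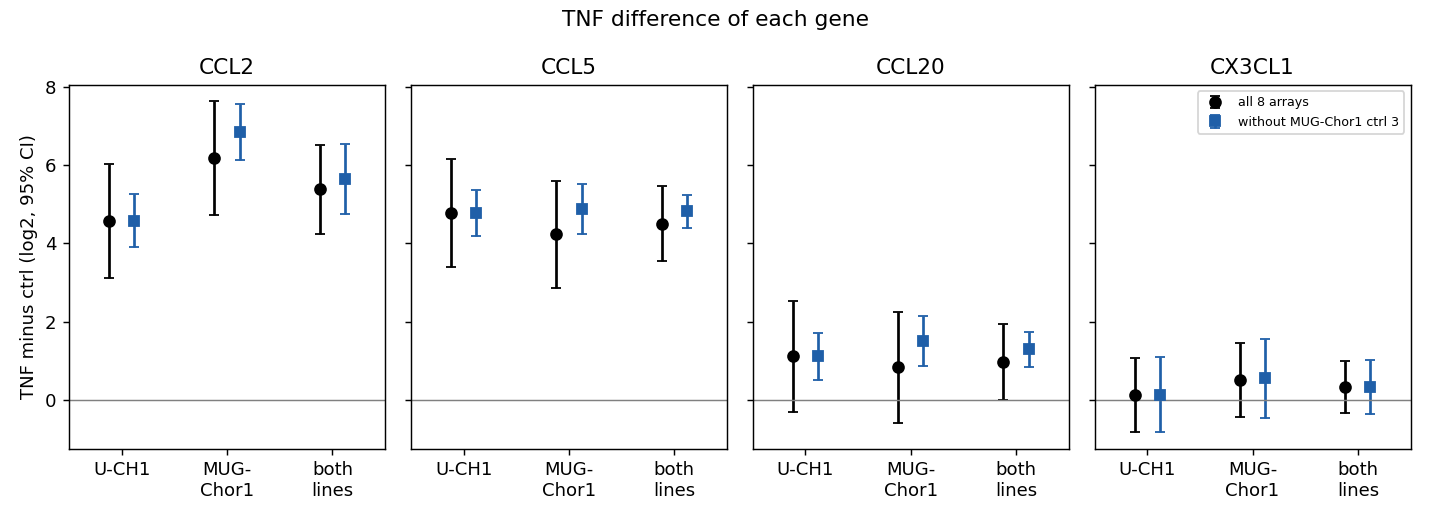
TNF minus untreated (log2, vertical axis) for each gene in U-CH1, in MUG-Chor1 and across both lines, with 95% confidence intervals from limma; circles use all 8 arrays and squares leave out MUG-Chor1 ctrl 3. The CCL20 interval in MUG-Chor1 spans 0 with all arrays and runs from 0.86 to 2.14 without that control.

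MUG-Chor1 ctrl 3 read higher than the mean of MUG-Chor1 ctrl 1 and 2 by 2.01 for CCL2, 1.92 for CCL5 and 1.99 for CCL20 (log2), and by 0.11 for CX3CL1. By size of this difference CCL2 stood 34th, CCL20 38th and CCL5 52nd from the top among 16986 genes, of which 3.04% were over 1. On the other 5 controls, each set against the other 2 of its line, that share was 0.471% to 1.29%. The departure of MUG-Chor1 ctrl 3 was thus not confined to the chemokine genes. Among the U-CH1 controls no array departed from the other two by more than 0.52 in CCL2, CCL5 or CCL20. In CX3CL1, U-CH1 ctrl 2 was 1.07 lower and U-CH1 ctrl 3 was 0.99 higher than the other two. The step on MUG-Chor1 ctrl 3 was 29.4% of the step on the TNF array for CCL2, 39.4% for CCL5 and 133% for CCL20, each on the log2 scale and from the mean of ctrl 1 and 2. Measured from MUG-Chor1 ctrl 3 alone, the TNF array was 4.83 higher in CCL2 and 2.95 higher in CCL5, and 0.49 lower in CCL20. The 5 genes that rose most on that control were CXCL14, a chemokine of the CXC family, by 4.23, the complement gene C3 by 3.47, the keratin gene KRT4 by 3.34, ZNF578 by 2.74 and the microRNA gene MIR222 by 2.65. MIR222 was at 5.24 and 5.76 on the U-CH1 and MUG-Chor1 TNF arrays, below MUG-Chor1 ctrl 3 at 6.63 and above the other 5 controls, which lay at 3.50 to 4.07. KRT4 was at 2.20 on both TNF arrays, lower than on all 6 controls. In U-CH1 the controls also lay under 2.57, at 2.22 to 2.47, so their order there is not read as a fall. The part of these 5 genes in the chemokine values of MUG-Chor1 ctrl 3 was not tested.

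**Figure D3:**
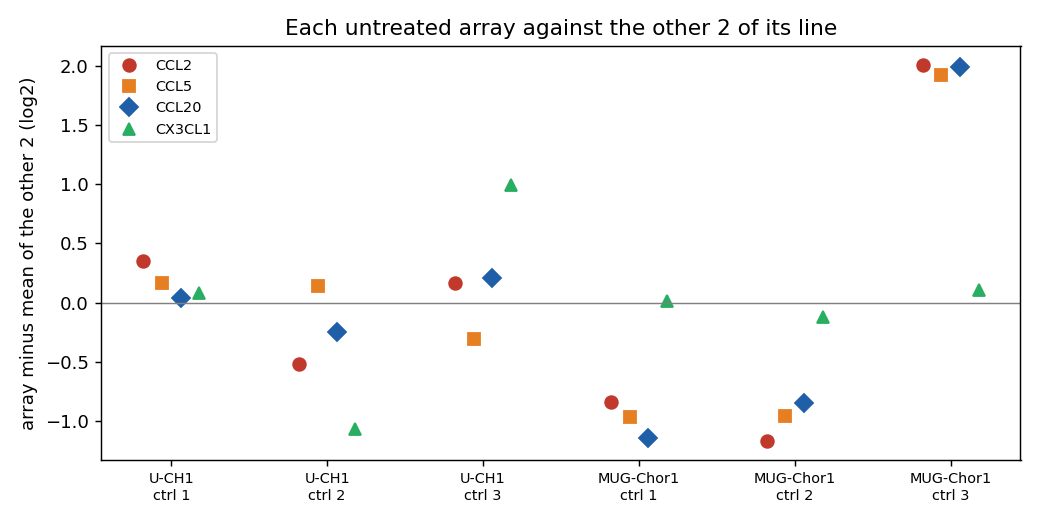
Difference of each untreated array from the mean of the other 2 untreated arrays of its line (log2, vertical axis) for the 4 genes. CCL2, CCL5 and CCL20 sit together at 1.92 to 2.01 on MUG-Chor1 ctrl 3, while CX3CL1 is at 0.11 there and spreads from -1.07 to 0.99 among the U-CH1 arrays.

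The size of the TNF response was compared between lines in the same model. For the 4 genes 0 of 4 differences passed in limma (0 at unadjusted p under 0.05), beside 0.53% of all genes, 0.2% with a positive and 0.33% with a negative difference (MUG-Chor1 minus U-CH1). The CCL2 response was 1.59 larger in MUG-Chor1 than in U-CH1 (log2; interval -0.46 to 3.64; adjusted p = 0.843), and 2.26 larger without MUG-Chor1 ctrl 3 (interval 1.28 to 3.23; adjusted p = 0.0448, where 0.895% of all genes were called). All 5 control values behind that second difference lie under 2.57. The interval of the difference ran from -2.48 to 1.39 for CCL5, from -2.27 to 1.72 for CCL20 and from -0.95 to 1.72 for CX3CL1, so these intervals reach well to both sides of 0.

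In untreated cells the 4 genes did not separate the lines at the threshold with all arrays (0 of 4 in limma, 2 at unadjusted p under 0.05), beside 18.9% of all genes called, 10.3% higher and 8.57% lower in MUG-Chor1. CX3CL1 averaged 5.37 ± 0.07 in untreated MUG-Chor1 and 4.51 ± 0.69 in untreated U-CH1 (SD, n = 3 each), a log2 difference of 0.86 (limma adjusted p = 0.0727). CCL20 averaged 3.78 ± 1.15 in untreated MUG-Chor1 and 2.61 ± 0.16 in untreated U-CH1 (SD, n = 3 each), a log2 difference of 1.17 (limma adjusted p = 0.0991). Without MUG-Chor1 ctrl 3 the CCL20 difference was 0.51 (adjusted p = 0.134), and leaving out single arrays gave 0.51 to 1.55. CCL2 averaged 1.77 ± 1.16 in untreated MUG-Chor1 and 2.29 ± 0.30 in untreated U-CH1, and CCL5 4.15 ± 1.11 in untreated MUG-Chor1 and 4.48 ± 0.18 in untreated U-CH1 (SD, n = 3 each). With all arrays the CCL5 difference was -0.33 (log2, limma adjusted p = 0.658). MUG-Chor1 ctrl 3 was set apart for its high CCL2, CCL5 and CCL20 values, so p-values of these genes without it depend on that choice. Without it the CCL5 difference was -0.97 (adjusted p = 0.0102), beside 18.2% of all genes called. The CCL2 difference also passed there (-1.18, adjusted p = 0.00645), but all 5 CCL2 values compared lie under 2.57, so it is not read as a difference in expression. The CX3CL1 difference passed without U-CH1 ctrl 3, at 1.19 (adjusted p = 0.0152).

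Ordered from high to low by group means, CCL2 was highest on the MUG-Chor1 TNF array, then on the U-CH1 TNF array, then in untreated U-CH1 and lowest in untreated MUG-Chor1. CCL5 had the 2 TNF arrays in the opposite order, U-CH1 above MUG-Chor1, with the same order of untreated means. For both genes the order of the untreated lines is not read as a difference, since MUG-Chor1 ctrl 3 read above every U-CH1 control. By group means CCL20 ran from the MUG-Chor1 TNF array through untreated MUG-Chor1 (3.78) and the U-CH1 TNF array (3.72) to untreated U-CH1. Without MUG-Chor1 ctrl 3 the untreated MUG-Chor1 mean was 3.12 and the middle positions were exchanged. CX3CL1 ran from the MUG-Chor1 TNF array through untreated MUG-Chor1 and the U-CH1 TNF array to untreated U-CH1. With all 8 arrays, TNF against untreated passed the test for CCL2 and CCL5 in each line, and the difference between untreated lines passed for none of the 4 genes. The 2 TNF arrays, compared in a contrast added after the data were seen, differed by 1.08 in CCL2, -0.87 in CCL5, 0.90 in CCL20 and 1.25 in CX3CL1 (log2, MUG-Chor1 minus U-CH1; limma adjusted p of 0.241 to 0.637), beside 5.14% of all genes called. That contrast sets 1 array against 1 array and takes its spread from the 6 controls alone.

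None of the other CC chemokines tested was called with TNF. Of 21 in a list of the family, 17 were named on the array by a probe set of their own, 7 passed the filter and were tested, and 0 were called across both lines in limma (0 at unadjusted p under 0.05), beside 2.48% of all genes, a share at which 0 of 7 is no result about the family. The median log2 difference of the 7 was -0.14, beside 0.05 for all genes tested, with CCL3, a macrophage chemokine with near-identical gene copies that leave its identity uncertain, the lowest at -0.32 (adjusted p = 0.470). CCL7 and CCL11 follow CCL2 on chromosome 17 in RefSeq's gene order and bind receptors of monocytes and eosinophils. CCL7 was at 1.78 in U-CH1 with TNF and 1.77 to 2.33 without, and at 2.24 in MUG-Chor1 with TNF and 1.20 to 1.92 without. CCL11 was at 1.50 in U-CH1 with TNF and 1.17 to 1.43 without, and at 0.89 in MUG-Chor1 with TNF and 1.00 to 1.42 without. Neither gene reached 2.57 on any array, so neither was tested. CX3CL1 lies between CCL22 and CCL17 on chromosome 16, which attract T cells through CCR4. CCL22 differed with TNF by 0.07 across both lines (adjusted p = 0.909) and CCL17 by -0.14 (adjusted p = 0.828). CCL28, a mucosal chemokine, was the 1 of 7 called between the untreated lines, beside 18.9% of all genes, with 4.14 to 4.37 in untreated MUG-Chor1 and 2.00 to 2.07 in untreated U-CH1 (log2 difference 2.25, adjusted p = 2.06e-05). With TNF it read 4.82 in MUG-Chor1 (adjusted p = 0.431 against the untreated arrays).

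Receptors for these chemokines were read next. Of 15 in the list, 12 were named, 6 were tested and 0 were called across both lines in limma (1 higher at unadjusted p under 0.05), again beside 2.48% of all genes and so no result about the receptors, with a median of -0.01 beside 0.05 for all genes tested. CCR10, the CCL28 receptor, was closest at 0.41 (adjusted p = 0.324). CCR2, the CCL2 receptor, read 1.52 and 1.57 on the U-CH1 and MUG-Chor1 TNF arrays and 1.38 to 1.64 on the controls, and CCR6, the CCL20 receptor, 1.90 and 1.94 on the TNF arrays and 1.51 to 2.20 on the controls. Neither reached 2.57. CX3CR1, the fractalkine receptor, was at 3.02 in MUG-Chor1 with TNF and 2.49 to 3.79 without, and at 4.36 in U-CH1 with TNF and 3.89 to 4.85 without. It was lower in untreated MUG-Chor1 than in untreated U-CH1 by a log2 difference of -1.22 (adjusted p = 0.0341), a call that ended without MUG-Chor1 ctrl 3, U-CH1 ctrl 1 or U-CH1 ctrl 3.

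Of 8 proteases known to cut these chemokines, all tested, 4 rose across both lines and none fell, beside 1.55% of all genes higher and 0.93% lower, with a median of 1.10 beside 0.05 for all genes tested. CTSS, cathepsin S, which can release fractalkine, was at 7.98 in U-CH1 with TNF and 4.02 to 5.21 without, and at 7.90 in MUG-Chor1 with TNF and 4.70 to 5.32 without (log2 difference 3.14, adjusted p = 0.000686). DPP4, which trims CCL5, rose by 1.39, the collagenase MMP1 by 1.35 and the sheddase ADAM17 by 0.85 (limma adjusted p of 0.0197 to 0.0477), but DPP4 lost its call without the MUG-Chor1 TNF array or any 1 control but MUG-Chor1 ctrl 3, MMP1 without either TNF array, and ADAM17 without either TNF array, U-CH1 ctrl 1 or MUG-Chor1 ctrl 1 or 2. ADAM10, the other fractalkine sheddase, differed by 0.21 (adjusted p = 0.737). In MUG-Chor1, 3 of the 8 rose, beside 2.88% of all genes called there, and in U-CH1 1 of the 8, beside 1.27%. MMP3, which clips CCL2, was at 5.84 in MUG-Chor1 with TNF and 2.14 to 2.38 without, but at 2.22 in U-CH1 with TNF and 2.31 to 2.47 without. Of 5 surface proteoglycans that hold chemokines at the cell surface, SDC4 (syndecan 4) rose by 1.55 and SDC2 (syndecan 2) fell by 1.36 (adjusted p = 0.0157 and 0.0312), with a list median of 0.21; SDC4 lost its call without the U-CH1 TNF array, and SDC2 without the MUG-Chor1 TNF array, U-CH1 ctrl 1 or 2, or MUG-Chor1 ctrl 1 or 2.

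Among 14 tested transcription factors of chemokine promoters, 3 rose and 1 fell across both lines (median 0.37), beside 1.55% of all genes higher and 0.93% lower. The NF-kB subunit genes RELB, NFKB2 and NFKB1 rose by 1.58, 1.43 and 1.14 (limma adjusted p = 0.0200, 0.00418 and 0.0186), while RELA, the classic NF-kB subunit, stood at 0.63 (adjusted p = 0.212). FOS, an AP-1 subunit, fell by 4.00 (adjusted p = 0.00113), and ELF3, an epithelial factor known to act on the CCL20 promoter, stood at 0.07 (adjusted p = 0.941). In MUG-Chor1 CEBPB, which encodes C/EBP beta, was also called, at 1.36 (adjusted p = 0.0239), a call lost without MUG-Chor1 ctrl 1 or 2. Of 10 tested genes of TNF sensing and NF-kB restraint, 3 rose and none fell (median 0.67), beside the same shares: TNFAIP3 by 3.21, NFKBIE by 1.69 and CYLD by 1.52 (adjusted p = 0.000487, 0.0217 and 0.00986). The receptor gene TNFRSF1A stood at -0.28 (adjusted p = 0.559). NFKBIA, an NF-kB inhibitor gene, rose in U-CH1 by 2.00 (adjusted p = 0.0168; lost without U-CH1 ctrl 1 or 2) and stood at -0.15 in MUG-Chor1 (adjusted p = 0.935). Across both lines the calls of NFKB1, NFKBIE and RELB ended without the U-CH1 TNF array and those of CYLD and RELB without the MUG-Chor1 TNF array; NFKBIE also lost its call without U-CH1 ctrl 1 and RELB without MUG-Chor1 ctrl 1.

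**Figure D4:**
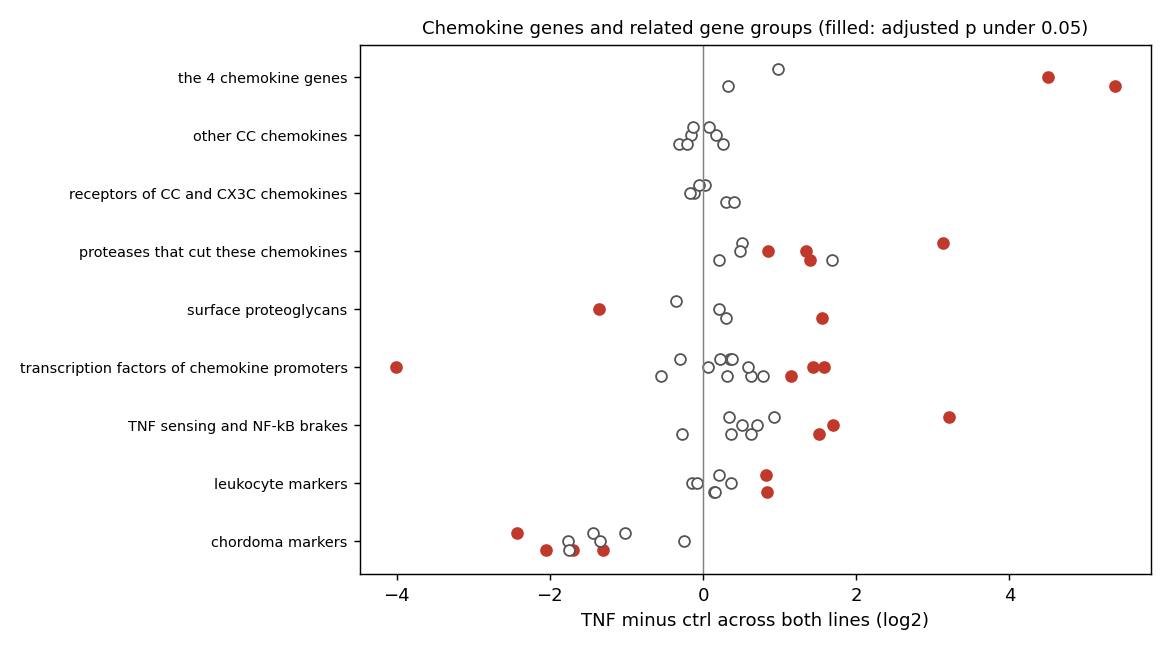
TNF minus untreated across both lines (log2, horizontal axis) for the tested genes of each group, 1 point a gene, filled where limma's adjusted p was under 0.05; vertical offsets within a group only separate points. CCL2 and CCL5 lie at 5.37 and 4.50, while the other CC chemokines stay between -0.32 and 0.27.

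White blood cells make CCL5 in large amounts, so their markers were read beside it. PTPRC, the pan-leukocyte gene, read 0.93 and 1.14 on the U-CH1 and MUG-Chor1 TNF arrays and 1.02 to 1.23 on the controls, and CD3E of T cells 1.82 and 1.51 on the TNF arrays and 1.45 to 1.94 on the controls. Both, and the B cell gene MS4A1, stayed under 2.57 on every array. The other 8 of the 11 leukocyte markers passed 2.57 on 1 array or more. Of these, 4 (CD2, CD68, NKG7 and CSF1R) did so on all 8 arrays, CD68 at 7.67 to 8.25 on the controls. The mean of 11 leukocyte markers was 3.12 and 3.11 on the TNF arrays and 2.85 to 3.04 on the controls. Of the 8 tested, CD68 rose by 0.84 and ITGAM by 0.83 across both lines (limma adjusted p = 0.0485 and 0.0448), beside 1.55% of all genes higher. Each of these calls ended without any 1 of 7 of the 8 arrays. Of 5 tested endothelial markers 0 passed across both lines in limma (1 lower at unadjusted p under 0.05), and of 6 fibroblast markers 0 (2 higher at unadjusted p under 0.05). Beside 2.48% of all genes called, these counts of 0 are no result about either list. In MUG-Chor1 3 of the 6 fibroblast markers rose, beside 1.47% of all genes higher, FAP by 3.74, LUM by 3.65 and DCN by 1.60. In U-CH1 0 of 6 were called (0 at unadjusted p under 0.05 in limma), beside 1.27% of all genes, again no result about the list. The DCN call ended without U-CH1 ctrl 1 or MUG-Chor1 ctrl 1 or 2. FAP passed 2.57 on the MUG-Chor1 TNF array alone, at 5.71 beside 1.63 to 2.29 on the MUG-Chor1 controls. Among the endothelial markers KDR fell by 2.37 in MUG-Chor1. Of 10 chordoma markers 4 fell across both lines, ACAN by 2.43, KRT19 by 2.05, SOX5 by 1.69 and TBXT by 1.30, beside 0.93% of all genes lower, and all 4 calls ended without the MUG-Chor1 TNF array. ACAN also lost its call without any 1 of the 6 controls, TBXT without U-CH1 ctrl 1 or 3 or MUG-Chor1 ctrl 1 or 2, and SOX5 without U-CH1 ctrl 1 or 3 or MUG-Chor1 ctrl 1. Within MUG-Chor1 8 of 10 were called lower, beside 1.41% of all genes lower there. In U-CH1 0 of 10 were called (4 lower at unadjusted p under 0.05 in limma), beside 0.359% of all genes lower. At that share 0 of 10 is no result about these markers. The log2 differences of the chordoma markers in U-CH1 ran from -1.03 to -0.08, with a median of -0.68 beside 0.04 for all genes tested. The part of these markers in the chemokine values was not tested, and fewer cells of a type cannot be told apart from less RNA per cell in such bulk samples.

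Patterns over the arrays were compared with Pearson's r, as a description in which all genes share the same 8 arrays. CCL2 ran most closely with SLC2A6 (r = 0.976), a glucose transporter family gene, CCL5 (0.972), GPR176 (0.970), APOL2 (0.968) and PLA2G4C (0.968). CCL5 ran most closely with TNFRSF9 (0.979), which encodes the costimulatory receptor 4-1BB, the transglutaminase gene TGM2 (0.978), CCL2, PLA2G4C (0.971) and TRAF3 (0.970). CCL20 ran most closely with MIR222 (0.980), RANBP17 (0.980), AK9 (0.979), PIP4P1 (0.979) and MBOAT7 (0.971). CX3CL1 ran most closely with CD99L2 (0.986), GARRE1 (0.984), IFT46 (0.982), MRPL43 (0.981) and POLD3 (0.975). The make-up of most of these lists changed when MUG-Chor1 ctrl 3 was left out, as other genes then ran closer. The listed genes themselves kept r from 0.960 (CCL20 with AK9) to 0.988 (CCL5 with TGM2) over the 7 remaining arrays. Without that array 0 of the 5 genes stayed among the closest 5 for CCL20, 1 for CCL2, 1 for CCL5 and 4 for CX3CL1. CCL20 correlated with CCL2 at 0.58 over 8 arrays and at 0.84 over the 7 without MUG-Chor1 ctrl 3, whereas CX3CL1 correlated with CCL2 at 0.26 and 0.28 and with CCL5 at 0.12 both ways.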

How the data were processed

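Total RNA of U-CH1 and MUG-Chor1 cells was labelled with a whole-transcript kit and hybridised to 8 arrays, per the labels' protocols. The deposited log2 values are 1 per probe set and array, made with RMA and Transcriptome Analysis Console per the submitters' processing notes, without versions. No source used here names the log base, which is taken from RMA and from values between 0.0648 and 12.7. RMA usually gives all arrays 1 distribution, which would hide a shift common to all genes. No detection call was used. The number of arrays limits the precision.

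Of 53617 probe sets, 23871 had 1 symbol in the platform annotation, 1842 several and 27904 were not listed; symbols were updated through RefSeq (GRCh38.p14). The brightest probe set stood for a gene, and a gene was tested if above 2.57, the median of all values, on at least 1 array. Tests used limma 3.58.1 in R 4.3.3, two-sided, with Benjamini-Hochberg adjustment over 16986 genes and a threshold of 0.05. The TNF effect over both lines was fitted with line as an additive term (residual df 5), and all other contrasts on the 4 groups (residual df 4). Scripts were tested on simulated data. Members and lists were chosen with earlier results of these data known. Named were the 4 genes, up to 4 called genes of each list by size (or the one with the smallest p), the 5 genes most like each member, the 5 that rose most on MUG-Chor1 ctrl 3, and TBXT and TNFRSF1A; other genes were named for their role or position after their values were seen. Alternatives covered the filter, probe sets, normalization, variance model, array weights, model and each array left out.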

Additional observations from a re-analysis of the deposited data

Results flagged for a closer look

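In the gene lists above, the TNF responses of 5 genes differed between the lines in limma's test of the difference (MUG-Chor1 minus U-CH1, log2). That test called 0.53% of all genes, and with all arrays it called none of CCL2, CCL5, CCL20 and CX3CL1. MMP3, a protease that clips CCL2, differed by 3.77 (adjusted p = 0.00166) and the fibroblast protease gene FAP by 3.95 (adjusted p = 0.00336), both from rises in MUG-Chor1. The chordoma markers ACAN, CD24 and KRT19 differed by -3.31, -2.47 and -2.05 (adjusted p = 0.0211, 0.0238 and 0.0364), with larger falls in MUG-Chor1. The KRT19 call ended without any 1 of the 6 controls but MUG-Chor1 ctrl 3, the CD24 call without U-CH1 ctrl 1 or 2 or MUG-Chor1 ctrl 1 or 2, and the ACAN call without U-CH1 ctrl 3. Each line has 1 TNF array, so none of these differences has a replicate.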

How the results depend on the processing

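The CCL2 and CCL5 rises kept their direction in all alternatives run (17 across both lines, 15 in each line) and their call in all but the one named below. Leaving out single arrays moved the CCL2 difference across both lines between 4.58 and 6.17 and that of CCL5 between 4.23 and 4.82. On the 4 MUG-Chor1 arrays alone, CCL5 (4.23) missed the threshold and 296 genes were called. Leaving out single arrays gave CCL20 differences of 0.80 to 1.30 across both lines and 0.46 to 1.50 in MUG-Chor1, of which the upper ends, without MUG-Chor1 ctrl 3, passed. It gave CX3CL1 differences of -0.22 to 0.46 in U-CH1, the lower end without U-CH1 ctrl 2. The difference of the TNF effects then ran from 1.20 to 2.26 for CCL2, -0.86 to 0.10 for CCL5 and -0.66 to 0.39 for CCL20, and array weights turned CCL20 to 0.087. Between untreated lines it ran from -1.18 to -0.12 for CCL2, -0.97 to -0.0089 for CCL5 and 0.51 to 1.19 for CX3CL1, and array weights let CX3CL1 pass (0.82). Untreated TBXT turned to 0.083 without U-CH1 ctrl 3. Same-numbered controls of the lines had r of deviations of 0.04, -0.06 and 0.16, beside -0.15 to 0.14 for the other pairs. These values do not settle whether the control numbers of the labels pair the lines. With the number as a replicate block CCL20 (1.17) and CX3CL1 (0.86) passed, and 3248 genes were called against 3209.

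Counts of called genes under array weights were 671 across both lines and 765 in MUG-Chor1, and 739 across both lines for the mean effect of 4 group means. With single arrays left out they ran from 199 to 489 across both lines, 104 to 329 in U-CH1, 284 to 664 in MUG-Chor1, 38 to 152 for the difference and 2123 to 3090 between untreated lines. The lowest counts followed the loss of MUG-Chor1 ctrl 1, U-CH1 ctrl 2, MUG-Chor1 ctrl 1, U-CH1 ctrl 3 and MUG-Chor1 ctrl 1; fewer arrays enter these fits, and otherwise the cause was not tested. Of the 5 genes most like a member, those kept without MUG-Chor1 ctrl 3 numbered 1 for CCL2, 1 for CCL5, 0 for CCL20 and 4 for CX3CL1. Values near the floor, as for untreated CCL2, limit fold changes.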
